A study of Mus musculus with 384 samples.

Results

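The 7 genes of the WNT pathway described here were followed through single hair follicle stem cells of mouse back skin: the ligand gene Wnt10a, the receptor gene Fzd3, the secreted inhibitors Wif1, Sfrp1 and Dkk3, the feedback target Axin2 and the nuclear effector Lef1. They were chosen by symbol, and each symbol matched 1 row, so the set is 7 of the 46609 rows of the deposited expression table. WNT ligands bind Frizzled receptors with the co-receptors LRP5 or LRP6, which stops the destruction complex built on Axin from removing β-catenin, so that β-catenin enters the nucleus and acts with TCF/LEF factors. Secreted Frizzled-related proteins and WIF1 bind ligands outside the cell, while Dickkopf proteins as a family act on the co-receptors, although DKK3 is a divergent member whose place in the pathway is less clear. In the resting hair follicle the stem cells of the bulge are known to express several secreted WNT inhibitors, and WNT signalling with LEF1 marks the hair germ that starts a new hair.

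Every mouse carried Sox9-CreER, a recombinase switched on by tamoxifen and driven by regulatory DNA of Sox9, a transcription factor of these stem cells, together with a floxed R26-YFP reporter on both alleles. The dKO label stands for NFIB fl/fl and NFIX fl/fl, that is floxed Nfib and Nfix, genes of the nuclear factor I (NFI) transcription factors, on both alleles. The cKO label stands for NFIB fl/+ and NFIX fl/fl, with 1 Nfib allele and both Nfix alleles floxed, so loss of Nfix is common to both groups where the alleles recombined, and no group here has unfloxed NFI alleles. The name NFIB-cKO in the series text belongs to these cKO mice. All cells came from mice at postnatal day 70, in the second resting phase, and were sorted as living (DAPI-negative), integrin α6-positive, YFP-positive cells that were either positive or negative for Sca-1, a surface protein (gene Ly6a) that is scarce on bulge cells and abundant on epidermis and the upper part of the follicle. Cells were processed with Smart-seq2, a full-length single-cell RNA method, and 378 of 384 cells had at least 1000 genes at 1 TPM or more (TPM is the share of a gene among all transcripts, scaled to a fixed total) and were kept.

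The Sca-1-negative gate held 154 dKO cells on 2 plates (93 and 61) and 183 cKO cells on 3 plates (71, 47 and 65), and the Sca-1-positive gate held 19 dKO cells of plate 2 and 22 cKO cells of plate 3. TPM keeps no read depth, so depth was judged by genes detected per cell, whose median was 5199 and 5189 on the dKO plates and 4805, 4963 and 5044 on the cKO plates. Animals are not named in the labels. Each genotype therefore counts as 1 sample, no test between groups was run, and values stand by plate, where animal and technical differences cannot be told apart. The labels give all cells as male, yet the plates fall into 2 kinds: Xist, the RNA of the inactive X chromosome, was at 44.5 TPM (dKO plate 1), 51.4 TPM (cKO plate 1) and 59.9 TPM (cKO plate 2), while dKO plate 2 and cKO plate 3 had summed Y-linked RNA of 34.1 and 41.7 TPM and next to no Xist. Each member's genotype ratio is therefore also given within the Xist plates and within the Y plates. Nfib averaged 58.4 and 90.4 TPM on the dKO plates and 80.4, 72.8 and 67.1 TPM on the cKO plates, and a gene-level TPM does not separate recombined from intact transcripts, so recombination was not checked. Nfix, floxed alike in both groups, averaged 29.6 and 32.3 TPM on the dKO plates and 46.7, 47.96 and 43.7 TPM on the cKO plates, which lie fully apart; its part in the values below was not tested. At least 3 of 10 bulge markers stood at 10 TPM or more in 73.8% to 75.3% of Sca-1-negative dKO cells and 72.3% to 87.3% of cKO cells by plate, but in 0 of 19 and 3 of 22 Sca-1-positive cells of dKO and cKO. This marker count was therefore met in most cells of the negative gate only. Of single bulge markers, Cd34 reached 10 TPM in 91 of 337 Sca-1-negative cells and Lgr5 in 65. At least 3 of 7 upper follicle markers stood at 10 TPM or more in 22.6% to 43.1% of Sca-1-negative cells by plate, so these cells are not all shown to be bulge cells.

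The start regions of members were read for the letters that TCF/LEF and NFI proteins are known to bind. RefSeq promoter windows, 250 bases before to 50 bases after a transcript start in build GRCm38.p6, were on hand for 3 of the 7 members, Wif1, Axin2 and Lef1, with 6 starts in all. The 250 bases before 3 of these starts are shown, because Wif1 is the member with the largest difference between genotypes, Axin2 is the usual readout of β-catenin activity, and the Lef1 start shown is the one start with a match. All 3 lie on the plus strand, at chr10:121033754-121034003, chr11:108920099-108920348 and chr3:131156044-131156293. The Lef1 start shown lies inside the gene, which is annotated at chr3:131110471-131224356. The Lef1 windows nearest the annotated gene start hold no match. Capitals mark the match, and a window with none stays in lower case.
Wif1: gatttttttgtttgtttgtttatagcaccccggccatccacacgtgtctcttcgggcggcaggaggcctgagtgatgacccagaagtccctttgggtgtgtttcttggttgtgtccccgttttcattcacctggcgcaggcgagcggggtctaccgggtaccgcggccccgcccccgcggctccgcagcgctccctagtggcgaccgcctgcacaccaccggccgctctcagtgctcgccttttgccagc
Axin2: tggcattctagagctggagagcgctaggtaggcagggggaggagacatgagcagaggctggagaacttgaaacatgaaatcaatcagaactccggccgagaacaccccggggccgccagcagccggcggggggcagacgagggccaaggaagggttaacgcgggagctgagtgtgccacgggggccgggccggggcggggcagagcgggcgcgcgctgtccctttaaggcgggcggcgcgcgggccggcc
Lef1: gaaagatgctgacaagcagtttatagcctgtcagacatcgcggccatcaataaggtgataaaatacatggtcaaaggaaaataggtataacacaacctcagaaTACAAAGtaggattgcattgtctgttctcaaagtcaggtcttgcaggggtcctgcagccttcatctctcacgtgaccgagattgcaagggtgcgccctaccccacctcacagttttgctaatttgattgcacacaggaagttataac
The searched TCF/LEF heptamers begin with CTTTG and end in AA or in AT or in TA or in TT, on either strand, and the match in the Lef1 window is TACAAAG, the reverse complement of a heptamer ending in TA, whose first base lies at −147 from the start. The 300-base windows of the other 5 starts held none of the heptamers, and neither the NFI half-site TTGGCA nor the full palindrome (TTGGC, any 5 bases, GCCAA) occurred in any of the 6 on either strand. Of all 32851 RefSeq promoters of the same length, 16.9% held such a heptamer, 14.1% the NFI half-site and 0.0365% the full palindrome. The palindrome also holds the half-site where its first free base is A, and 2 of the 4 Lef1 windows largely overlap each other. The absence of a match says only that these letters are not in these windows.

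Averaged over the 5 plates of the Sca-1-negative gate, Axin2 had the highest mean level of the members (24.6 TPM), followed by Dkk3 (16.0 TPM), Wnt10a (15.2 TPM), Sfrp1 (11.2 TPM), Wif1 (9.98 TPM), Fzd3 (7.17 TPM) and Lef1 (3.06 TPM). The plate means of every pair of neighbours in this order overlapped, the closest to apart being Fzd3, with 4.60 TPM on its lowest plate, and Lef1, with 5.25 TPM on its highest. A gene is called measured here if its mean over the 5 plates is 5 TPM or more, which holds for 6 of the 7 members but not for Lef1. The levels are uneven between cells. At 10 TPM or more, here called positive, were 151 of 337 Sca-1-negative cells for Axin2, 141 for Wnt10a, 80 for Sfrp1, 77 for Dkk3, 72 for Fzd3, 49 for Wif1 and 18 for Lef1.

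**Figure D1:**
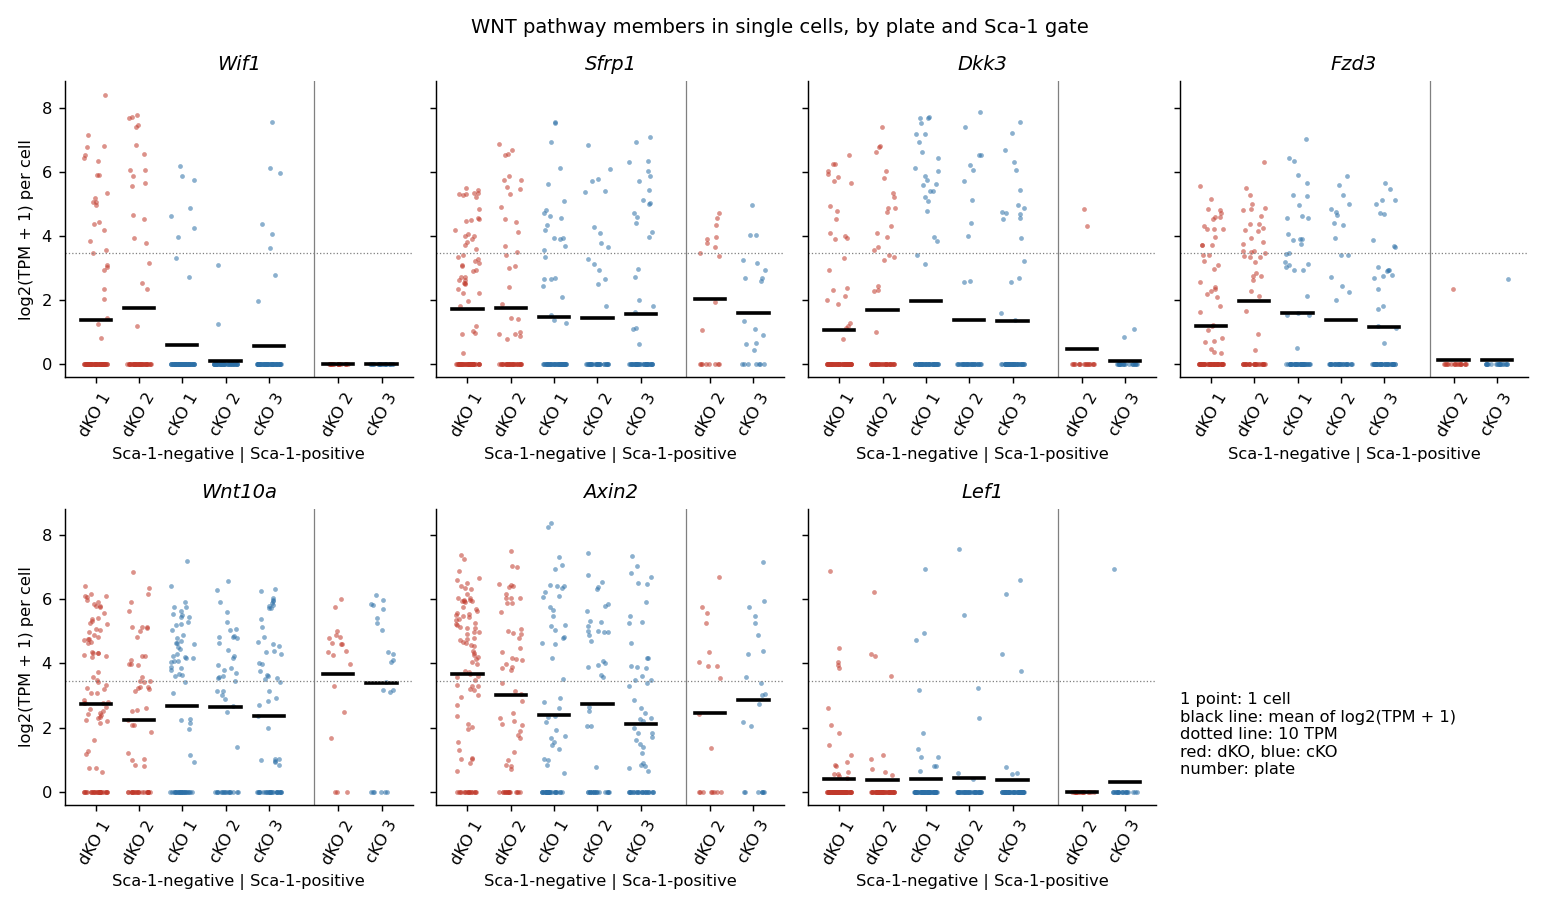
Each panel shows 1 member as log2(TPM + 1) per cell (vertical axis) on each plate, dKO in red and cKO in blue, with the Sca-1-negative gate left of the grey line and the Sca-1-positive gate right of it; black bars are means. Wif1 reached 338.6 TPM in the highest cell of dKO plate 1 and stayed at or under 7.55 TPM on cKO plate 2, and no Sca-1-positive cell carried it.

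The question the genotypes address is what floxing the remaining Nfib allele adds where Nfix is already floxed. Of the 7 members, the inhibitor Wif1 alone passed the size rule, a ratio of plate-averaged means of at least 1.5 with the dKO plates all above or all below the cKO plates, by mean TPM and likewise by the mean of log2(TPM + 1): it stood 4.93-fold higher in dKO. All fold values and log2 ratios are of mean TPM with 1 TPM added. Sfrp1, Axin2, Wnt10a, Fzd3 and Dkk3 had overlapping plates in mean TPM. In mean log2(TPM + 1) the plates of Sfrp1 and of Axin2 were apart, with dKO higher. Over all 7060 measured genes, 1.77% passed the rule as higher and 3.95% as lower in dKO, so 1 of 6 measured members higher and 0 lower stand beside those shares. Of all measured genes that passed, 30.9% were higher in dKO. That share was 49.3% with median-of-ratios size factors and 60.1% once the ERCC spike-in rows were removed with the 5 rows of highest TPM. Rescaling also changed which genes reached 5 TPM, with 7001 measured genes under the size factors and 12269 after the removal of those rows. The shares are therefore over different sets of genes. The median log2 ratio of all measured genes was −0.12, or −0.003 after that removal, and Wif1 passed the rule under both scalings.

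Wif1, which binds WNT ligands outside the cell, averaged 14.7 and 25.4 TPM on dKO plates 1 and 2, against 3.94, 0.190 and 5.68 TPM on cKO plates 1, 2 and 3. Both dKO plates stood above all 3 cKO plates. The log2 ratio of dKO over cKO was 2.30, with 2.35 within the Xist plates and 1.98 within the Y plates. Wif1-positive cells made up 21.5% (95% exact binomial interval 13.7% to 31.2%) and 26.2% (15.8% to 39.1%) of cells on the dKO plates. On the cKO plates they made up 9.86% (4.06% to 19.3%), 0 of 47 cells, which allows up to 6.38%, and 9.23% (3.46% to 19.0%). The intervals cover counting error among cells only. Among positive cells the median level was 37.0 and 65.4 TPM on the dKO plates, against 28.5 and 40.1 TPM on cKO plates 1 and 3, so both the share and the level within positive cells were higher on each dKO plate than on the cKO plate of its kind that held positive cells. The 3 highest cells held 43.2% and 40.6% of the Wif1 sum of the dKO plates and 64.5% to 100% of that of the cKO plates. With the highest 5% of cells of each plate removed, Wif1 averaged under 5 TPM and dropped out of the measured genes.

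In mean TPM the other secreted inhibitors did not follow Wif1. Sfrp1, a Frizzled-like decoy for WNT ligands, averaged 7.20 and 13.7 TPM on the dKO plates, against 12.4, 9.77 and 13.0 TPM on the cKO plates. The groups overlapped in mean TPM and the log2 ratio was −0.15, with −0.56 within the Xist plates and 0.07 within the Y plates. In mean log2(TPM + 1) Sfrp1 stood at 1.702 and 1.745 on the dKO plates and at 1.48, 1.43 and 1.547 on the cKO plates. Its direction therefore depended on the measure. Dkk3 averaged 7.46 and 14.3 TPM on the dKO plates, against 27.4, 18.1 and 12.8 TPM on the cKO plates. Dkk3 was lowest on dKO plate 1, but dKO plate 2 lay above cKO plate 3; the log2 ratio was −0.78, with −1.49 within the Xist plates and 0.14 within the Y plates. Leaving out dKO plate 2 made Dkk3 pass the rule as lower.

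For the ligand and the receptor the plates of both genotypes overlapped. Wnt10a, a ligand needed for normal hair and teeth in humans and mice, averaged 16.3 and 12.8 TPM on the dKO plates, against 16.9, 15.0 and 15.1 TPM on the cKO plates (log2 ratio −0.10, with 0.03 within the Xist plates and −0.22 within the Y plates). Fzd3, a Frizzled receptor that also acts in planar cell polarity, averaged 4.60 and 8.82 TPM on the dKO plates, against 10.1, 7.22 and 5.12 TPM on the cKO plates. Its log2 ratio was −0.14 over all plates, but −0.79 within the Xist plates and 0.68 within the Y plates, where it would pass 1.5-fold in opposite directions.

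Axin2, a scaffold of the destruction complex that β-catenin itself induces, averaged 29.5 and 25.7 TPM on the dKO plates, against 28.5, 23.0 and 16.4 TPM on the cKO plates. The plates overlapped in mean TPM and the log2 ratio of means was 0.28, with 0.19 within the Xist plates and 0.62 within the Y plates. The share of Axin2-positive cells was 61.3% (50.6% to 71.2%) and 45.9% (33.1% to 59.2%) on the dKO plates, against 33.8% (23.0% to 46.0%), 48.9% (34.1% to 63.9%) and 29.2% (18.6% to 41.8%) on the cKO plates. On the mean of log2(TPM + 1), which weighs the number of positive cells more than their height, the difference dKO minus cKO was 0.93. On that measure the dKO plates, at 3.662 and 3.017, lay above the cKO plates, at 2.383, 2.749 and 2.099. The number of genes detected was also higher on both dKO plates than on every cKO plate, and its part in the share of positive cells was not tested.

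Lef1, the DNA-binding partner of β-catenin, averaged 2.17 and 2.05 TPM on the dKO plates, against 2.75, 5.25 and 3.08 TPM on the cKO plates. In mean TPM the plates did not overlap and dKO stood lower (log2 ratio −0.59, with −0.66 within the Xist plates and −0.42 within the Y plates). In mean log2(TPM + 1) the plates overlapped, and the gene lies under 5 TPM and rests on few cells. Only 9 of 154 dKO cells and 9 of 183 cKO cells were Lef1-positive, and the 3 highest cells held 76.9% to 98.1% of each plate's sum. Without the highest cell of each plate the means were 0.908 and 0.857 TPM on the dKO plates, against 1.03, 1.26 and 1.62 TPM on the cKO plates, and with the highest 5% of cells removed the log2 ratio was 0.07.

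**Figure D2:**
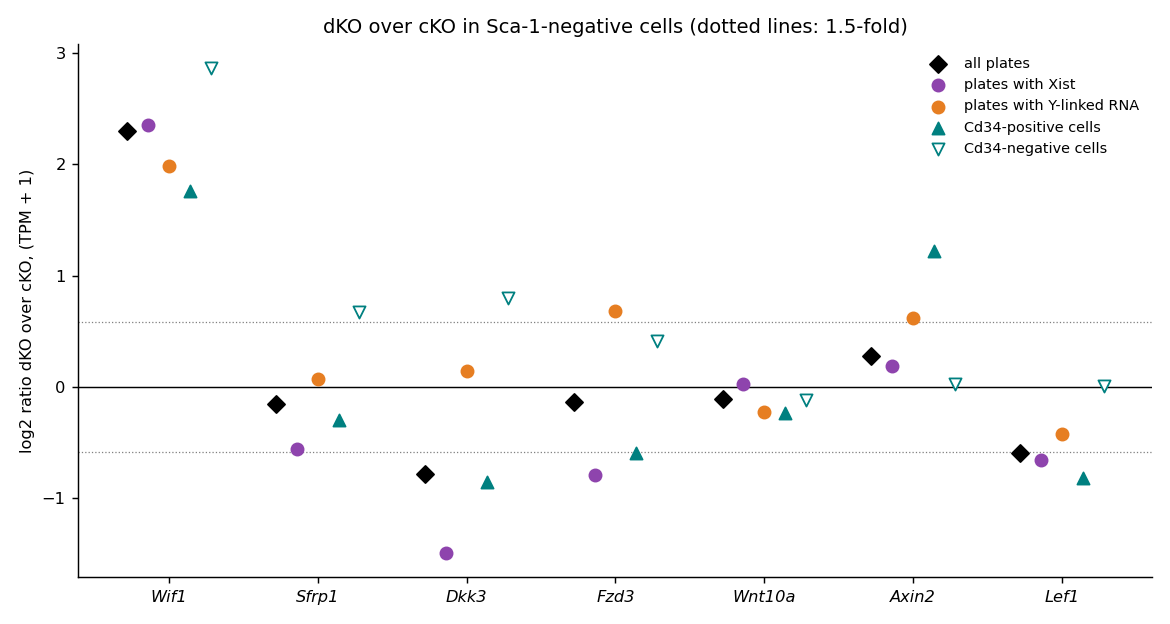
Log2 ratio of dKO over cKO in mean TPM + 1 (vertical axis) for each member, over all plates, within the Xist plates, within the Y plates, and within Cd34-positive and Cd34-negative cells. Wif1 lies between 1.76 and 2.87 in all 5 settings, while Sfrp1, Dkk3 and Fzd3 lie on both sides of 0. Wnt10a and Lef1 lie above 0 only within the Xist plates (0.03) and in Cd34-negative cells (0.007) respectively.

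Cd34, a surface protein of bulge stem cells, splits the Sca-1-negative gate into 91 positive and 246 negative cells at 10 TPM, with 23 and 16 positive cells on the dKO plates and 23, 13 and 16 on the cKO plates. A member passed the Cd34 rule with a ratio of at least 1.5 and the same direction on all 5 plates. Dkk3, Sfrp1 and Fzd3 passed as higher and Wnt10a passed as lower in Cd34-positive cells, beside 7.49% higher and 9.21% lower of the 7059 measured genes other than Cd34. Both groups of cells come from the same plates. Cells positive for Cd34 had fewer genes detected than negative ones on dKO plate 1 and all 3 cKO plates, with medians of 4929 against 5350, and of 4611 to 4734 against 4991 to 5097; on dKO plate 2 they had more, 5349 against 5138. All 4 members also passed when cells were matched on genes detected.

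Dkk3 averaged 25.3 and 45.1 TPM in Cd34-positive cells of the dKO plates and 83.0, 65.2 and 45.7 TPM in those of the cKO plates. In Cd34-negative cells it averaged 1.61 and 3.27 TPM on the dKO plates and 0.705, 0.147 and 2.08 TPM on the cKO plates. The ratio of plate-averaged means, 52.8 TPM against 1.56 TPM, was 21.0-fold, rank 21 from the top of the 7059 measured genes other than Cd34. Dkk3-positive cells were 68 of 91 Cd34-positive cells (74.7%, 64.5% to 83.3%) and 9 of 246 Cd34-negative cells (3.66%, 1.69% to 6.83%). Sfrp1 showed the same split, with 34.2 TPM in Cd34-positive and 2.65 TPM in Cd34-negative cells, 9.65-fold, and with log2 ratios of 2.03 and 3.18 on the dKO plates and 3.72, 3.37 and 3.92 on the cKO plates. Fzd3 averaged 14.5 TPM in Cd34-positive and 4.34 TPM in Cd34-negative cells, 2.90-fold, with log2 ratios between 0.63 on dKO plate 2 and 2.60 on cKO plate 2. Lef1 lay on the same side on all 5 plates, with 8.92 TPM in Cd34-positive and 0.844 TPM in Cd34-negative cells, under the floor of 5 TPM and with 10 of 91 and 8 of 246 positive cells.

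Wnt10a ran the other way, with 8.79 TPM in Cd34-positive and 17.7 TPM in Cd34-negative cells (log2 ratio −0.93). It was lower in Cd34-positive cells on all 5 plates, but by no more than 0.08 on the log2 scale on cKO plate 3, against 0.99 to 1.94 on the other plates, and it no longer passed with Cd34 cut at 1 TPM or 50 TPM or with a pseudocount of 10 TPM. Axin2 had 16.7 TPM in Cd34-positive and 27.9 TPM in Cd34-negative cells. It was lower in Cd34-positive cells on 4 plates, by 0.71 to 2.03 on the log2 scale, and 0.34 higher on dKO plate 1; without that plate it would pass the rule as lower. Wif1 had 17.7 TPM in Cd34-positive and 7.25 TPM in Cd34-negative cells and was higher in Cd34-positive cells on 4 plates, while on cKO plate 2 all 13 Cd34-positive cells were listed at 0; without that plate it would pass as higher.

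**Figure D3:**
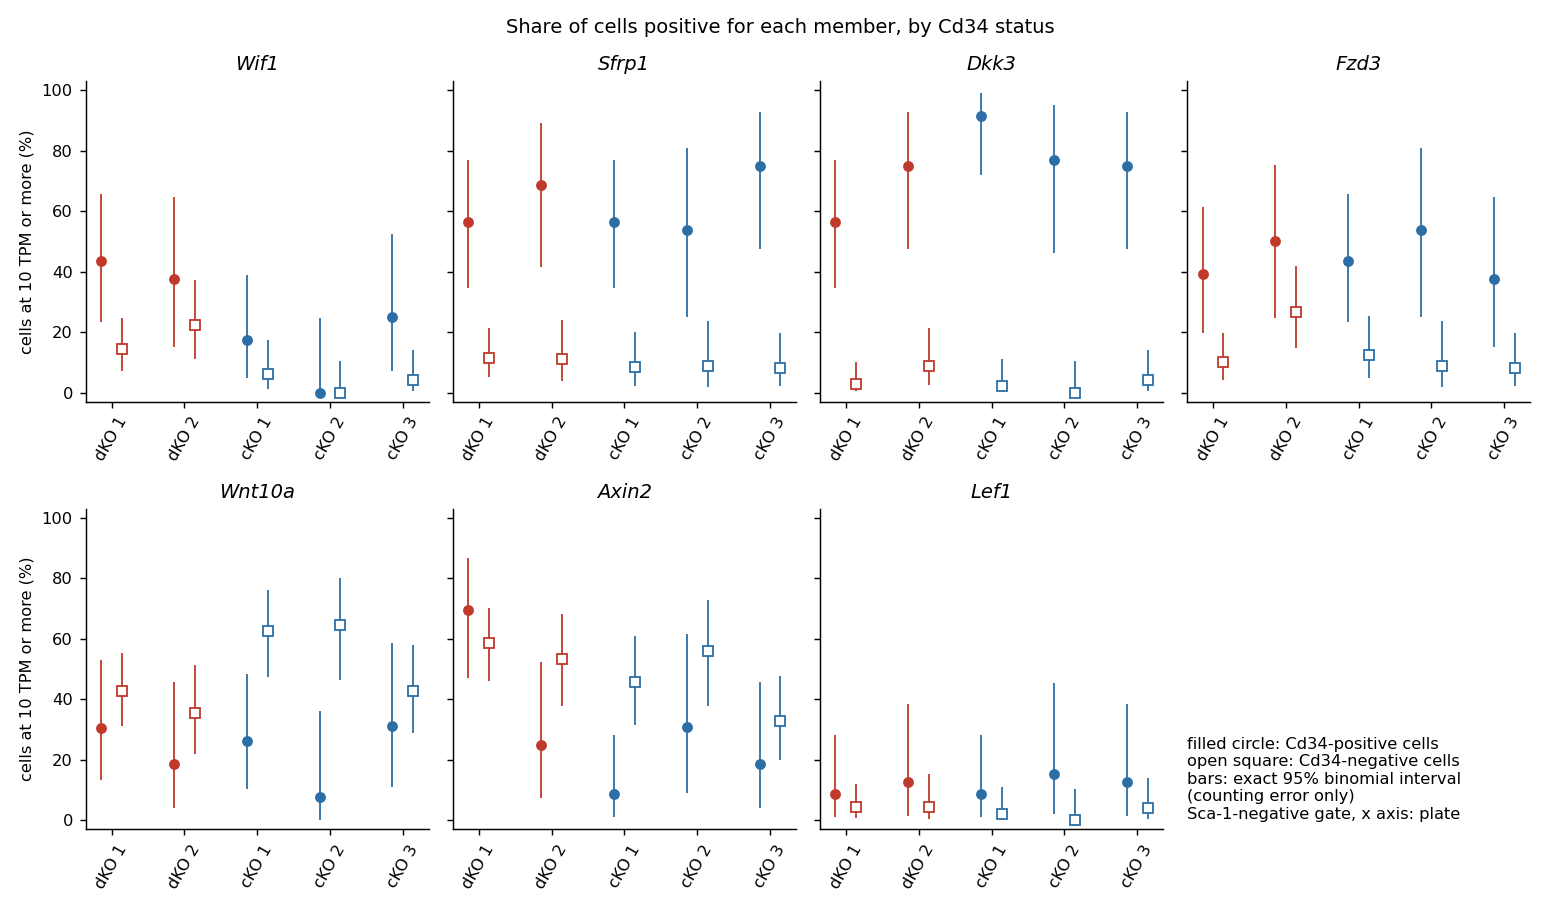
Share of cells at 10 TPM or more (vertical axis, %) in Cd34-positive cells (filled circles) and Cd34-negative cells (open squares) of each plate, dKO in red and cKO in blue, with exact 95% binomial intervals. Dkk3 and Sfrp1 separate the cell kinds on every plate, while Axin2 stands at 69.6% of Cd34-positive cells on dKO plate 1 and at 8.70% to 30.8% on the other plates.

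The genotype ratios were then read within each Cd34 class. Wif1 averaged 31.4 TPM in dKO and 8.54 TPM in cKO among Cd34-positive cells (log2 ratio 1.76), and 16.1 TPM in dKO and 1.35 TPM in cKO among Cd34-negative cells (2.87). In both classes the dKO plates lay above all cKO plates, with 21.0 and 41.8 TPM on the dKO plates against 8.03, 0 and 17.6 TPM on the cKO plates in Cd34-positive cells, and 12.6 and 19.6 TPM against 1.98, 0.262 and 1.80 TPM in Cd34-negative cells. Axin2 averaged 25.9 TPM in dKO and 10.6 TPM in cKO among Cd34-positive cells (1.22), and 28.3 TPM in dKO and 27.7 TPM in cKO among Cd34-negative cells (0.03). In Cd34-positive cells the Axin2 means were 35.3 and 16.6 TPM on the dKO plates and 8.55, 15.5 and 7.71 TPM on the cKO plates, so the groups do not overlap but dKO plate 2 and cKO plate 2 nearly meet. Genes detected in Cd34-positive cells had medians of 4929 and 5349 on the dKO plates and 4637, 4734 and 4611 on the cKO plates; their part in the Axin2 values was not tested. Whether the genotype ratio differs between the Cd34 classes was not tested.

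Dkk3 averaged 35.2 TPM in dKO and 64.6 TPM in cKO among Cd34-positive cells, and 2.44 TPM in dKO and 0.976 TPM in cKO among Cd34-negative cells. Sfrp1 averaged 29.9 TPM in dKO and 37.1 TPM in cKO among Cd34-positive cells, and 3.70 TPM in dKO and 1.95 TPM in cKO among Cd34-negative cells. Fzd3 averaged 10.9 TPM in dKO and 16.9 TPM in cKO among Cd34-positive cells, and 5.29 TPM in dKO and 3.71 TPM in cKO among Cd34-negative cells. For these 3 genes the mean over plates was lower in dKO among Cd34-positive cells and higher in dKO among Cd34-negative cells. The plates of both genotypes were apart for Dkk3 in Cd34-positive cells, where 45.1 TPM was the highest dKO plate mean and 45.7 TPM the lowest of the cKO plate means, and for Sfrp1 in Cd34-negative cells, with 3.66 and 3.74 TPM on the dKO plates and 1.70 to 2.13 TPM on the cKO plates, and overlapped otherwise. Cd34 itself averaged 26.1 and 48.4 TPM over all Sca-1-negative cells of the dKO plates and 99.8, 81.6 and 44.3 TPM over those of the cKO plates; its part in these values was not tested.

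Wif1-positive cells were also sorted by Krt79, a keratin of the upper follicle, a split chosen after the values were seen. Among cells positive for neither Cd34 nor Krt79, 20 of 87 dKO cells (23.0%, 14.6% to 33.3%) and 5 of 96 cKO cells (5.21%, 1.71% to 11.7%) carried Wif1. Among Krt79-positive, Cd34-negative cells none did, 0 of 28 in dKO, which allows up to 10.7%, and 0 of 35 in cKO, which allows up to 8.57%. Among Cd34-positive cells 16 of 39 in dKO (41.0%, 25.6% to 57.9%) and 8 of 52 in cKO (15.4%, 6.88% to 28.1%) did. These counts pool the plates of a genotype, and the intervals leave out differences between plates and animals. By plate, the share among cells with neither marker was 17.5% and 33.3% in dKO and 7.9%, 0% and 6.67% in cKO. Among Cd34-positive cells it was 43.5% and 37.5% in dKO and 17.4%, 0% and 25.0% in cKO.

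**Figure D4:**
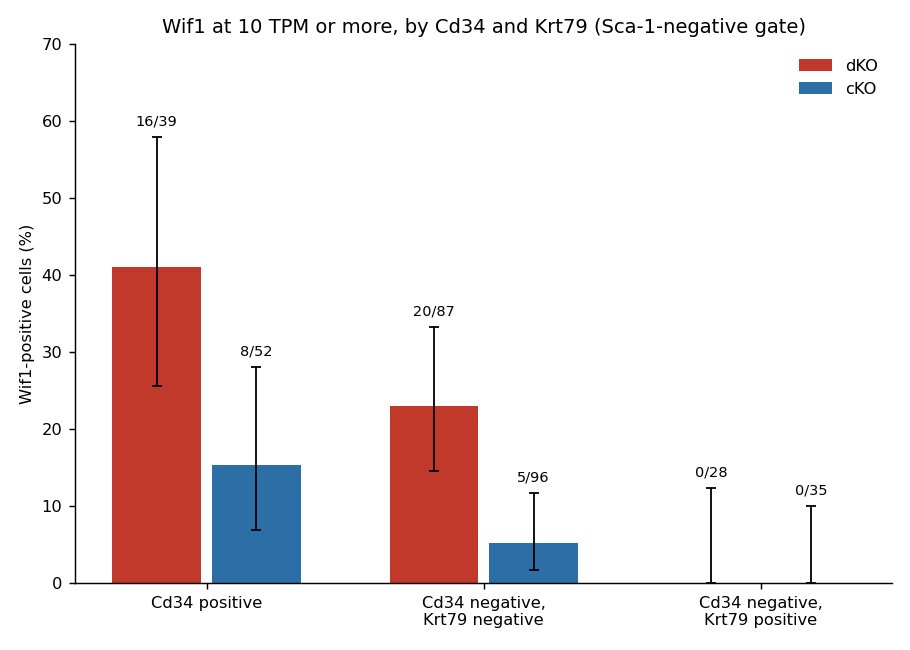
Bars give the share of Wif1-positive cells (vertical axis, %) in 3 classes of Sca-1-negative cells, dKO in red and cKO in blue, with exact 95% binomial intervals and the counts above. Cells are pooled over the plates of each genotype, and the intervals cover counting error among cells only. The dKO bars are higher among Cd34-positive cells and among cells with neither marker, and no Krt79-positive, Cd34-negative cell carried Wif1.

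All 49 Wif1-positive cells had at least 3 bulge markers, against 212 of 288 Wif1-negative cells. At least 3 of 10 hair germ and matrix markers, a list that holds Lef1, were found in 16 of 49 Wif1-positive cells (32.7%) and in 8.68% of Wif1-negative cells. Markers of other cell types that the sort could hold were counted beside Wif1. None of its 49 positive cells had 3 markers of melanocytes, immune cells or endothelial and mural cells. At least 1 melanocyte marker was found in 23 of the 49 (46.9%) and in 32.6% of Wif1-negative cells. Most of this was Mitf, which reached 10 TPM in 108 of 337 cells, 22 of them Wif1-positive. None of the 337 cells had 3 of 10 markers of fibroblasts and dermal papilla. Col3a1, Lum, Dcn, Pdgfrb, Corin and Rspo3 reached 10 TPM in 0 cells. Col1a2 reached it in 8 cells, 1 of them Wif1-positive, Crabp1 in 2, 1 of them Wif1-positive, and Pdgfra in 2, with 0 Wif1-positive. The summed level of that list was 11.8 and 23.9 TPM on the dKO plates and 7.38, 2.75 and 5.93 TPM on the cKO plates, mostly from Col1a1, at 17.8 TPM in dKO and 2.43 TPM in cKO, which 39 cells carried, 15 of them Wif1-positive; its part in the Wif1 values was not tested. Sums of the bulge list were 515 and 724 TPM on the dKO plates and 1046, 1264 and 767 TPM on the cKO plates. By this sum, which follows its most abundant markers, dKO stood lower while Wif1 stood higher. The share of cells with at least 3 bulge markers overlapped, at 73.8% to 75.3% on the dKO plates and 72.3% to 87.3% on the cKO plates.

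In the Sca-1-positive gate Wif1 was listed at 0 in all 19 dKO cells of plate 2 and all 22 cKO cells of plate 3, which allows up to 15.8% and 13.6% of cells. In Sca-1-negative cells of the same plates it averaged 25.4 and 5.68 TPM. Dkk3 stood at 2.42 TPM in Sca-1-positive and 14.3 TPM in Sca-1-negative cells of dKO plate 2, and at 0.0868 and 12.8 TPM in those of cKO plate 3. A gene passed the gate rule at 2-fold where its mean log2(TPM + 1) also differed by 1 or more. Wif1, Sfrp1, Dkk3, Axin2 and Wnt10a were measured on dKO plate 2. On cKO plate 3 the same members except Wif1 were measured, since Wif1 averaged under 5 TPM over the gates. Wif1 and Dkk3 passed as lower on dKO plate 2, beside 10.4% of 6534 measured genes. Dkk3 passed as lower on cKO plate 3, beside 5.80% of 6639. No member passed as higher, beside 4.29% on dKO plate 2 and 3.00% on cKO plate 3. Fzd3 was at 0.212 TPM in Sca-1-positive and 8.82 TPM in Sca-1-negative cells of dKO plate 2, and at 0.240 and 5.12 TPM in those of cKO plate 3, with no positive cell among 41, but averaged under 5 TPM over the gates and was not counted.

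Wnt10a was the member with the most Sca-1-positive carriers, 13 of 19 dKO cells (68.4%, 43.5% to 87.4%) and 12 of 22 cKO cells (54.6%, 32.2% to 75.6%). It averaged 20.5 TPM in Sca-1-positive and 12.8 TPM in Sca-1-negative cells of dKO plate 2, and 23.2 and 15.1 TPM in those of cKO plate 3, under 2-fold on both plates. Sfrp1 averaged 7.53 TPM in Sca-1-positive and 13.7 TPM in Sca-1-negative cells of dKO plate 2, and 4.75 and 13.0 TPM in those of cKO plate 3. On the mean of log2(TPM + 1) its direction turned, with Sca-1-positive minus Sca-1-negative cells at 0.29 on dKO plate 2 and 0.06 on cKO plate 3. Its positive share was 36.8% of Sca-1-positive and 26.2% of Sca-1-negative cells on dKO plate 2, and 13.6% and 24.6% of those on cKO plate 3. Axin2 averaged 16.9 TPM in Sca-1-positive and 25.7 TPM in Sca-1-negative cells of dKO plate 2, and 20.6 and 16.4 TPM in those of cKO plate 3, so the order of the gates differed between the plates. Lef1 was listed at 0 in all Sca-1-positive dKO cells, and its mean of 5.60 TPM in Sca-1-positive cKO cells came from 1 cell at 123.2 TPM.

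Cells positive for 3 or more members were mostly Cd34-positive. Dkk3, Sfrp1 and Fzd3 had passed the Cd34 rule as higher in these same cells, so this count partly restates that result. At least 2 of the 7 were positive in 78 of 91 Cd34-positive cells (85.7%) and in 104 of 246 Cd34-negative cells (42.3%). At least 3 were positive in 57 of 91 Cd34-positive cells (62.6%), in 31 of 246 Cd34-negative cells (12.6%) and in 5 of 41 Sca-1-positive cells (12.2%), and no cell was positive for all 7. Of 80 Sfrp1-positive cells 51 were Dkk3-positive (63.8%), against 10.1% of the other 257 cells. Both genes were higher in Cd34-positive cells, and this contrast pools the Cd34 classes. Within Cd34-positive cells the shares were 82.1% and 62.9%, and within Cd34-negative cells 20.8% (5 of 24) and 1.80%. Of 18 Lef1-positive cells 9 were Wif1-positive, against 12.5% of the other 319 cells. Within Cd34-positive cells it was 7 of 10 against 21.0%, and within Cd34-negative cells 2 of 8 against 9.66%. Wnt10a and Axin2, the members most frequent outside Cd34-positive cells, were both positive in 71 cells, 65 of them Cd34-negative. Axin2 was positive in 50.4% of Wnt10a-positive and 40.8% of Wnt10a-negative cells, and Wnt10a in 47.0% of Axin2-positive and 37.6% of Axin2-negative cells. Within Cd34-negative cells Axin2 was positive in 54.6% of Wnt10a-positive and 44.9% of Wnt10a-negative cells. The order turned within Cd34-positive cells, at 27.3% and 33.3%.

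Likeness was measured as Pearson's r of log2(TPM + 1) over the 337 Sca-1-negative cells after each plate's mean was subtracted; the cells share plates and depth, so r describes these cells only. The genes most like Dkk3 were Cd34 (r = 0.80), Fzd2 (0.76) and Tgm5 (0.76), and those most like Sfrp1 were Dkk3 (0.65), S100a4 (0.65) and Slc6a6 (0.65). For Fzd3 they were Cd34 (0.39), Il31ra (0.39) and Lgr5 (0.38), and for Lef1 they were Lgr5 (0.39), Kirrel (0.31) and Wif1 (0.31). Wif1 was most like Synpo2 (0.58), Serpinb11 (0.49) and Creb5 (0.48), and its r with Cd34 was 0.21. Wnt10a was most like Ly6e (0.41), Ifitm3 (0.41) and Ly6a (0.38), the gene of the sorting antigen Sca-1. Axin2 had no close neighbour, with Sox21 at 0.30 and Cachd1 and Pou2f3 at 0.28, and its r with each other member lay between −0.20 and 0.06.

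Across the wider pathway, 48 of 102 listed WNT genes were measured, of which 4 passed the genotype rule as higher and 2 as lower in dKO, beside the 1.77% higher and 3.95% lower of all measured genes, with a median log2 ratio of −0.01 beside −0.12 over all measured genes. Among 5 measured ligands and release factors, the ligand gene Wnt7b was higher, with 20.5 and 14.9 TPM on the dKO plates and 7.77, 10.3 and 3.93 TPM on the cKO plates. Among 13 receptors and co-receptors, Lgr6, an R-spondin receptor of upper follicle stem cells, was lower, with 6.14 and 8.93 TPM on the dKO plates and 11.3, 24.3 and 20.6 TPM on the cKO plates. Within the Xist and the Y plates the log2 ratios were 1.10 and 1.69 for Wnt7b and −1.40 and −1.12 for Lgr6.

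Of 8 measured inhibitors, Wif1 and Znrf3, a membrane ubiquitin ligase that removes Frizzled receptors, were higher; Znrf3 averaged 8.62 TPM in dKO and 5.19 TPM in cKO. Of 13 measured intracellular genes, the scaffold gene Dvl1 was lower, with 3.65 TPM in dKO and 6.60 TPM in cKO. None of 4 measured TCF and Groucho genes passed, with Aes at 29.5 TPM in dKO and 22.9 TPM in cKO and Tle3 at 12.9 TPM in dKO and 21.3 TPM in cKO, whose plates were apart in mean TPM but not in mean log2(TPM + 1). Of 10 measured target genes Znrf3 and Cd44, an adhesion receptor, were higher and none passed as lower; Cd44 averaged 202 TPM in dKO and 127 TPM in cKO. Ephb3, an ephrin receptor, missed the rule as Tle3 did, with 7.73 TPM in dKO and 12.2 TPM in cKO. Within the Xist and the Y plates the log2 ratios were 0.55 and 0.78 for Znrf3, −0.55 and −0.91 for Dvl1 and 0.58 and 0.71 for Cd44.

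By Cd34, 12 of the 48 measured genes passed as higher and 9 as lower in Cd34-positive cells, beside the 7.49% higher and 9.21% lower of all measured genes other than Cd34, with a median log2 ratio of −0.01 beside 0.01 over all measured genes. Of 13 receptors 7 were higher (Fzd1, Fzd2, Fzd3, Fzd7, Lrp6, Lgr4 and Lgr5) and Fzd10 was lower. Lgr5, an R-spondin receptor and stem cell marker, averaged 126.8 TPM in Cd34-positive and 12.5 TPM in Cd34-negative cells, and Fzd2 18.8 TPM in Cd34-positive and 1.62 TPM in Cd34-negative cells. The inhibitors divided, with Sfrp1 and Dkk3 higher and Sostdc1, Kremen1 and Apcdd1 lower. Apcdd1, a membrane inhibitor that is also a target, averaged 7.59 TPM in Cd34-positive and 54.5 TPM in Cd34-negative cells. Of the 10 targets, Lgr5 was higher and Myc, Cd44, Apcdd1 and Tnfrsf19 were lower, the last with 0.0698 TPM in Cd34-positive and 24.8 TPM in Cd34-negative cells.

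**Figure D5:**
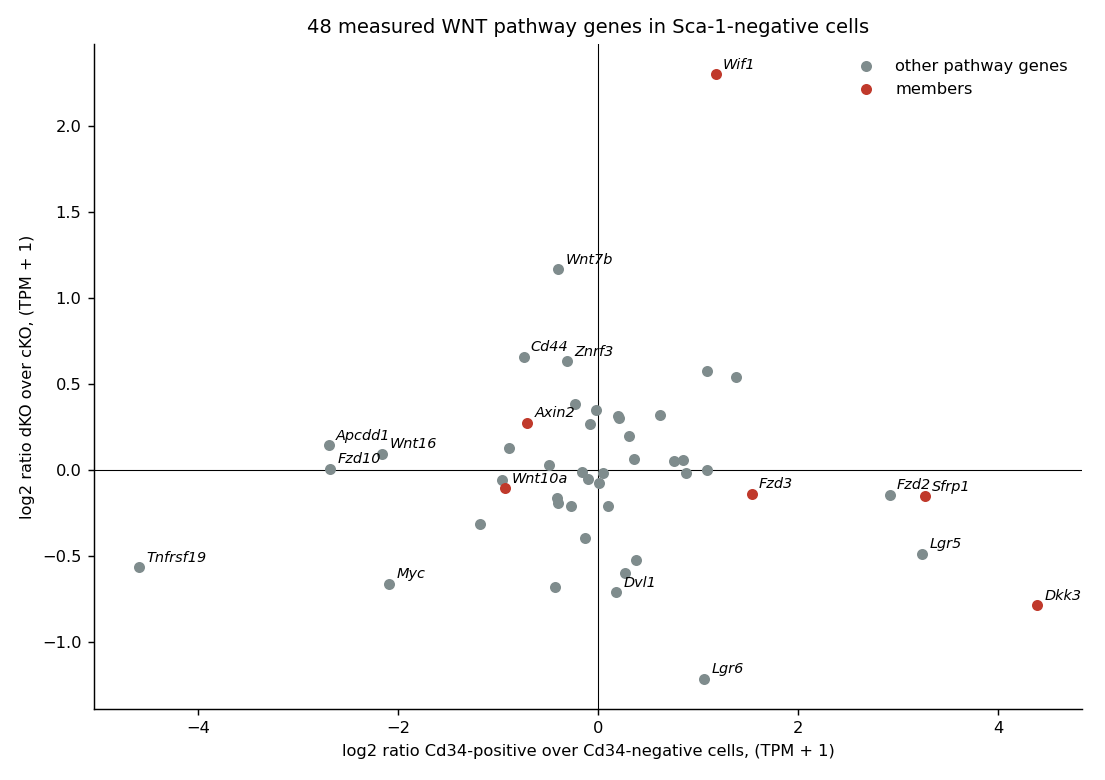
Each point is 1 of 48 measured WNT pathway genes, placed by its log2 ratio of Cd34-positive over Cd34-negative cells (horizontal axis) and of dKO over cKO (vertical axis), members in red. Wif1 lies highest on the genotype axis (2.30) and Dkk3 farthest to the right (4.39), with Tnfrsf19 farthest to the left (−4.59).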

How the data were processed

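RNA of single sorted follicle cells was amplified by Smart-seq2 and sequenced in pairs, per the labels' protocols; without molecular identifiers or strand marks, copies of 1 molecule and reads of overlapping genes cannot be told apart. The deposited values are TPM, scaled over all 46609 rows including 92 ERCC spike-in rows; the tools were RSEM 1.2.30 and Bowtie2 2.2.9, with build mm10 (GRCm38), per the submitters' processing notes, and their annotation release was not given in the sources used here. TPM keeps no depth, and a large share of abundant RNA, such as the row Rn18s-rs5 (55.3% to 61.5% of TPM by plate and gate), lowers all other values.

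Cells with at least 1000 genes at 1 TPM were kept. Genotype and gate came from the labels and the plate from the title number; no column was identical to another. Mean TPM per plate was averaged with equal weight, ratios used a pseudocount of 1 TPM, so differences of low genes read too small, and ERCC rows were not counted as genes. The size rules, set at 1.5-fold or 2-fold with a floor of 5 TPM, are descriptions and not tests. Only the genotype rule was run on simulated data, with planted changes larger than 1.5-fold and no plate or animal differences in the model. That run therefore cannot tell how the rule behaves near 1.5-fold or with such differences. The gate rule and the Cd34 rule were not simulated. The members, lists and rules were chosen with earlier results of these data known. All members were named, with list members past the rule (at most 6) or otherwise the 2 of highest TPM, and the 3 genes of highest r per member; other list genes were named after their values were seen. Shares carry exact (Clopper-Pearson) 95% intervals, and where no cell was positive the upper limit is 3 over n cells. Doublets were not called, since cells were sorted singly. Alternatives were other pseudocounts, cell and gene filters, scalings, thresholds, removal of cells, and single plates or kinds of plate. Python 3.11.15, numpy 2.4.6, pandas 2.3.3, scipy 1.17.1 and matplotlib 3.10.9 were used.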

Additional observations from a re-analysis of the deposited data

Results flagged for a closer look

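For 4 comparisons of a member, every value of one kind of plate or genotype stood on the opposite side from the other, and none of these differences was tested. In the log2 ratio of dKO over cKO, the Xist plates (dKO plate 1 against cKO plates 1 and 2) and the Y plates (dKO plate 2 against cKO plate 3) differed in sign for Sfrp1 (−0.56 and 0.070), Dkk3 (−1.49 and 0.14) and Fzd3 (−0.79 and 0.68). For these 3 genes the Xist plates had the gene lower in dKO by mean TPM and the Y plates had it higher. Wnt10a also differed in sign (0.03 and −0.22), but its dKO plate 1 lay between cKO plates 1 and 2. By mean log2(TPM + 1), Sfrp1 was higher in dKO on both kinds of plate. Sfrp1, Dkk3 and Fzd3 are also the measured members highest in Cd34-positive over Cd34-negative cells. Mean Cd34 was 26.1 TPM on the dKO plate against 99.8 and 81.6 TPM on the cKO plates with Xist, and 48.4 TPM on the dKO plate against 44.3 TPM on the cKO plate with Y-linked RNA; its part in the ratios was not tested.

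In the log2 ratio of Sca-1-positive over Sca-1-negative cells, dKO plate 2 and cKO plate 3 differed in sign for Axin2 (−0.58 and 0.32), with 19 and 22 Sca-1-positive cells behind the values. Lef1 was lower in Sca-1-positive than in Sca-1-negative cells of dKO plate 2 (listed at 0, against 2.05 TPM) and higher in those of cKO plate 3 (5.60 TPM, from 1 cell, against 3.08 TPM).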

How the results depend on the processing

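Wif1 stayed higher in dKO under all 19 alternatives (log2 ratio 1.14 to 2.81), and passed the size rule under 17. It dropped out of the measured genes at a floor of 20 TPM and with the highest 5% of cells removed, which left 0 members higher, since its mean then lies under the floor. With differences of mean log2 the values were 1.14 for Wif1, 0.24 for Sfrp1, −0.20 for Dkk3, 0.93 for Axin2 and 0.0012 for Lef1. Lef1 was −0.18 with a pseudocount of 10 TPM and 0.068 with the highest 5% of cells removed. On the Xist plates Sfrp1 was −0.56, Dkk3 −1.49 and Fzd3 −0.79, with 2 members lower by the rule (Dkk3 and Fzd3). On the Y plates Dkk3 was 0.14, Axin2 0.62 and Fzd3 0.68, with 3 members higher (Wif1, Axin2 and Fzd3). Leaving out 1 plate at a time gave −0.63 to 0.21 for Sfrp1, −0.28 to 0.052 for Wnt10a, and 0 to 1 members lower, the 1 being Dkk3 without dKO plate 2.

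Counts of all measured genes past the rule were 125 higher and 279 lower in dKO. They were 46 and 85 with a pseudocount of 10 TPM, 519 and 701 without a floor, 30 and 68 at 20 TPM, 192 and 1042 on the Xist plates and 939 and 725 on the Y plates. There were 582 higher of 12269 measured genes after ERCC and the 5 most abundant rows were removed. There were 183 lower of 4740 with the highest 5% of cells removed, and 130 lower with mean log2. Leaving out 1 plate gave 143 to 467 higher and 350 to 725 lower. In the Cd34 comparison 0 members were lower with Cd34 cut at 1 TPM or 50 TPM or with a pseudocount of 10 TPM, and 1 to 2 with 1 plate left out, Axin2 joining Wnt10a without dKO plate 1. Sfrp1, Dkk3 and Fzd3 remained higher in Cd34-positive cells under all 10 alternatives. The gate ratios moved by over 1 SD between plates of a genotype in 17 alternative values and by less in 11 on dKO plate 2, and in 19 and 9 on cKO plate 3; the sign turned for Sfrp1 with mean log2 on both plates (0.29 and 0.06), and for Lef1 on cKO plate 3 with mean log2 (−0.033) and with the highest 5% of cells removed (−0.039).

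Each genotype counts as 1 sample, 1 to 2 plates of each kind stand for it, and animals and plates cannot be told apart. Depth per cell is unknown, so a 0 is not shown to be absence. The cause of the shifts above was not tested.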
